A study of Mus musculus with 18 samples.

Results

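The transcripts of 7 chemokine receptors were followed in mouse eosinophils cultured with apoptotic cells (ACs): Ccr1, Ccr2, Ccr3, Ccrl2, Cxcr2, Cxcr4 and Cx3cr1. They were taken by their gene identifiers from the 54446 genes of the deposited table, and all 7 were found. Chemokine receptors are proteins with several membrane-spanning segments that couple to inhibitory G proteins and steer leukocytes along gradients of small secreted chemokines. CCR3, the receptor of the eotaxins, is the receptor that draws eosinophils into tissues, CCR1 and CCR2 are best known from monocytes and macrophages, and CXCR2, the receptor of the CXC chemokines that recruit neutrophils, is best known from neutrophils. CXCR4 binds CXCL12 and holds leukocytes in the bone marrow, CX3CR1 binds fractalkine, and CCRL2 is an atypical receptor that does not signal like the others and presents the chemoattractant chemerin to neighbouring cells.

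The eosinophils came from the peritoneal cavity of NJ.1638 Il5Tg mice, in which an Il5 transgene expands eosinophils, and the labels give the strain as C57BL/6. In all 6 groups they were cultured for 18 h with 5 apoptotic thymocytes per eosinophil, the thymocytes having been killed with dexamethasone, and were then purified again by Siglec-F. One experiment, called Type 1 here, added nothing else, E. coli, IFN-γ or IFN-γ with E. coli, and a separate IL-4 experiment added nothing else or IL-4, with 3 libraries in each group. As every group held ACs, the groups are named below by what was added: AC controls, E. coli, IFN-γ, combined (IFN-γ with E. coli) and IL-4. Each stimulus was compared with the ACs libraries of its own experiment, so the 3 stimuli of the Type 1 experiment share their control libraries. The study calls its replicates biological and has a different mouse in each lane of a figure of eosinophils with ACs, while the labels tie no library to a mouse, so whether p-values reflect the spread between mice or between cultures is not given for these libraries. Eosinophils without ACs are not analysed here, so every difference below is one between stimuli in the presence of ACs.

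Libraries were made by CEL-Seq2, which reads the 3' ends of transcripts, and held between 779421 and 7782072 reads counted on genes, with a median of 4461121. The shallowest were those numbered 3 in the IL-4 experiment, with 779421 reads for the AC control and 849705 for IL-4, and in them 1 read is worth a normalized count of 5.36 or 5.14. The labelled cell type was checked against marker lists. Siglecf, the eosinophil marker used for purification, had a mean of 3237 ± 113 in the Type 1 AC controls and 1630 ± 101 with IFN-γ (SD, n = 3), a fall by 0.99 on the log2 scale, and fell by 0.76 with combined stimulation. Of the 5 eosinophil markers tested, Siglecf, Il5ra and Ear6 were lower with IFN-γ, and Siglecf and Ear2 with combined stimulation. By the threshold given below, the shares of all genes lower were 9.96% and 17.2%. Il5ra was lower and Ear6 higher with E. coli (all genes: 5.25% and 5.05%). With IL-4 Ear2 and Ear6 were the 2 of 8 markers that were higher, beside 1.09% of all genes in either direction. Their part in the receptor changes was not tested. Epx, the eosinophil peroxidase, had group means between 0.46 and 2.33 across the Type 1 groups and of 12 and 14.1 across those of the IL-4 experiment. The 10 macrophage and monocyte markers summed to between 14734 and 40730 in every library, with Csf1r, the receptor of a macrophage growth factor, at group means between 843 and 1619, so transcripts typical of macrophages were present throughout. In such bulk samples fewer cells of a type and less RNA per cell cannot be told apart.

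Of the 6 receptors abundant enough to be tested, Ccrl2 and Cxcr2 had the largest rises with the Type 1 stimuli. E. coli raised both, IFN-γ raised Ccrl2 and lowered the sparse Ccr2, and combined stimulation raised Ccrl2, Cxcr2 and, to a lesser degree, Ccr1. A receptor was called when limma, fitted to all genes whose normalized counts averaged 10 or more, gave it both an adjusted p below 0.05 and a 1.5-fold change or larger. With E. coli 2 of the 6 tested receptors were higher, beside 5.05% of the 10166 genes tested, and none was lower, beside 5.25%. With IFN-γ 1 of 6 was higher, beside 11.4% of all genes, and 1 was lower, beside 9.96%. With combined stimulation 3 of 6 were higher, beside 14.7%, and none was lower, beside 17.2%. With IL-4 limma called 0 of 6, beside 1.09% of 10669 genes in either direction. At an unadjusted p under 0.05 there were 3 of the 6, beside 1030 of the 10669 genes. edgeR and DESeq2 each called 2 of the 6. Of all genes edgeR called 1.19% higher and 0.797% lower, and DESeq2 1.20% and 0.759%. The median change of the 6 receptors was 0.39 on the log2 scale with E. coli, 0.11 with IFN-γ, 0.55 with both and -0.15 with IL-4, beside a median over all genes of -0.05 or nearer to 0. Ranges of the 3 libraries that did not overlap with the AC controls were seen for 4 receptors above and 1 below with E. coli (all genes: 19.9% and 18.4%), for 2 and 1 with IFN-γ (22.6% and 20.3%), for 4 and 0 with combined stimulation (23.9% and 24.8%) and for 1 and 2 with IL-4 (8.45% and 8.84%). Fold changes throughout are those of the normalized count plus 1, which understates the change of low transcripts.

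**Figure D1:**
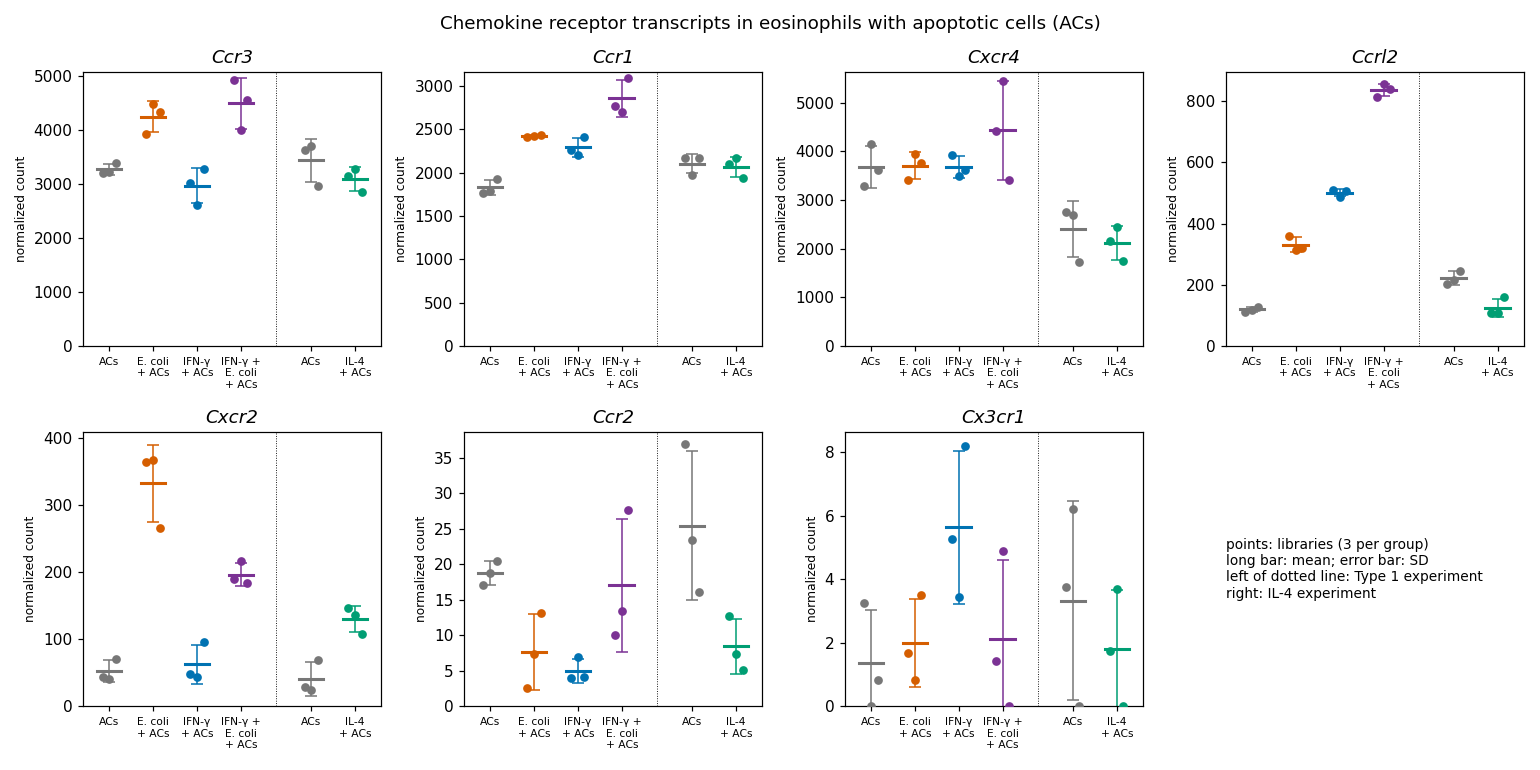
Normalized count (linear axis from 0) of each of the 7 receptors in the 18 libraries, by group, with points for libraries, long bars for means and error bars for the SD (n = 3), and with the Type 1 experiment left and the IL-4 experiment right of the dotted line. Ccrl2 climbs from 112 to 127 with ACs to between 815 and 856 with IFN-γ + E. coli + ACs, Cxcr2 is highest with E. coli + ACs, and Ccr2 and Cx3cr1 stay low.

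Ccr1 (ENSMUSG00000025804.5), Ccr3 (ENSMUSG00000035448.9) and Ccr2 (ENSMUSG00000049103.14) are neighbours on chromosome 9 of GRCm38, where the GENCODE annotation places them within 151434 bases. Ccr1 lies at chr9:123962124-123968692 on the minus strand, Ccr3 at chr9:124021972-124031689 and Ccr2 at chr9:124101950-124113557 on the plus strand, with 53279 bases between Ccr1 and Ccr3 and 70260 between Ccr3 and Ccr2. Ccrl2 (ENSMUSG00000043953.12) lies apart from them on the same chromosome at chr9:111054486-111057519 on the minus strand. Cxcr2 (ENSMUSG00000026180.8, chr1:74153989-74161246, plus strand) and Cxcr4 (ENSMUSG00000045382.6, chr1:128588199-128592293, minus strand) are on chromosome 1. The chromosome 9 neighbours did not move alike: with E. coli the changes were 0.41 for Ccr1, 0.38 for Ccr3 and -1.40 for Ccr2 on the log2 scale, and with IFN-γ they were 0.32, -0.14 and -1.75.

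The 250 bases before the annotated starts, from RefSeq on GRCm38.p6, were searched on both strands for motifs of factors that E. coli, IFN-γ or IL-4 are known to activate. All 7 receptors had at least 1 start in the table and 9 windows were searched. The NF-κB consensus was found in 1 window each of Ccrl2, Ccr1 and Ccr3, and in 7.25% of all 32851 windows of the table. The STAT6 element (TTC and GAA with 4 bases between them) was in 5.85% of all windows and the interferon-stimulated response element (GAAA and GAAA with 2 bases between them) in 2.98%, and these letters were in none of the receptors' windows. The 3 windows with a match are shown because they set the receptor with the largest rise under combined stimulation beside the 2 abundant CC receptors. They read 5' to 3' on the strand of the gene, with the match in capitals.
Ccrl2, chr9:111057519-111057768, minus strand, match beginning 56 bases before the start: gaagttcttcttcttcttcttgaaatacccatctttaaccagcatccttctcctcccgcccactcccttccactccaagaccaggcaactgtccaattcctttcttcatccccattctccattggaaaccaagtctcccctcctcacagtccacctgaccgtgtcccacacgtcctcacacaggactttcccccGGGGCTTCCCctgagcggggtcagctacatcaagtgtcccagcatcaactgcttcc
Ccr1, chr9:123968693-123968942, minus strand, match beginning 74 bases before the start: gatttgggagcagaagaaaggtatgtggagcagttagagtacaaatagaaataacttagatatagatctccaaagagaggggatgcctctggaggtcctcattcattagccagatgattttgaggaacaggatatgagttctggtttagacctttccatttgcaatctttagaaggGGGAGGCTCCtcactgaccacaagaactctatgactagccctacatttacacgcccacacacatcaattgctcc
Ccr3, chr9:124021721-124021970, plus strand, match beginning 179 bases before the start: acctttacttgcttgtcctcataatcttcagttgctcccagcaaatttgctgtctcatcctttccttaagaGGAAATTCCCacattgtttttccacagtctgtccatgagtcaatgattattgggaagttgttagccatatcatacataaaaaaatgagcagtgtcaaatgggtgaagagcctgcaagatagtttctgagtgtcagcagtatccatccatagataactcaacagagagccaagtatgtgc
The match in the Ccrl2 window belongs to the outermost of its 3 annotated starts. Cxcr2, the other receptor raised by E. coli, held none of these motifs in its window. A match is a run of letters in these windows, and binding was not measured.

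Ccr3, the eotaxin receptor, was higher wherever E. coli was present and was not called against the AC controls. With ACs alone in the Type 1 experiment its normalized counts were 3211, 3228 and 3385, with E. coli 3939, 4481 and 4342, with IFN-γ 3023, 2623 and 3275, and with combined stimulation 4934, 4005 and 4556. Both groups with E. coli lay above both groups without it, with no overlap. The change against the AC controls was 0.38 (95% interval 0.14 to 0.61, adjusted p = 0.029) with E. coli and 0.45 (0.22 to 0.68, adjusted p = 0.0030) with combined stimulation on the log2 scale, both short of 1.5-fold. With IFN-γ it was -0.14 (-0.38 to 0.09, adjusted p = 0.36). Against IFN-γ, the addition of E. coli raised Ccr3 1.51-fold (0.60 on the log2 scale, adjusted p = 0.00075), in a comparison with 5.96% of genes higher and 8.61% lower. This call was at the edge of the fold threshold, and the change was 0.51 without IFN-γ replicate 2 and 0.53 without combined replicate 1, each under 1.5-fold. In the IL-4 experiment Ccr3 counts were 3642, 3703 and 2976 in the AC controls and 3146, 3290 and 2863 with IL-4. These groups overlapped, with a change of -0.15 (-0.43 to 0.14, adjusted p = 0.74).

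Ccr1, a receptor of CCL3, CCL5 and related CC chemokines, stood higher with each Type 1 stimulus. Its normalized counts were 1767, 1790 and 1931 in the AC controls, 2410, 2426 and 2437 with E. coli, 2263, 2202 and 2407 with IFN-γ, and 2774, 2700 and 3095 with combined stimulation. All 9 libraries with a stimulus lay above the 3 in the AC controls, and those with both stimuli lay above the other 6, while IFN-γ lay just under E. coli, between 2202 and 2407 against 2410 and 2437. Combined stimulation raised Ccr1 1.56-fold (0.64 on the log2 scale, 95% interval 0.44 to 0.85, adjusted p = 3.5e-05). The single stimuli moved it less than 1.5-fold, 1.33-fold with E. coli (adjusted p = 0.0079) and 1.25-fold with IFN-γ (adjusted p = 0.018). The interaction of IFN-γ and E. coli was -0.09 (95% interval -0.38 to 0.20, adjusted p = 0.76). Without combined replicate 3 the change with both stimuli was 0.58 and missed the fold threshold. With a common upper quartile it was 0.50 and missed it too. In the IL-4 experiment Ccr1 counts were 2166, 1976 and 2166 in the AC controls and 2097, 2164 and 1933 with IL-4. These ranges overlapped almost entirely and the change was -0.03 (-0.28 to 0.23).

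Ccrl2 had the largest change over the AC controls among the 6 receptors tested, which it reached with combined stimulation. Its normalized counts in the Type 1 experiment were 112, 119 and 127 in the AC controls, 360, 313 and 321 with E. coli, 509, 488 and 507 with IFN-γ, and 815, 856 and 840 with combined stimulation. The 4 groups stood in this order with no overlap between any 2 of them. E. coli raised it 2.76-fold (95% interval of the log2 change 1.21 to 1.72, adjusted p = 1.1e-07), IFN-γ 4.17-fold (1.81 to 2.31, adjusted p = 2.0e-10) and combined stimulation 6.96-fold (2.55 to 3.05, adjusted p = 1.7e-12). These 3 calls held in each alternative fit and without any single library, with log2 changes between 1.40 and 1.51, 2.02 and 2.11, and 2.76 and 2.84 over the libraries left out. Each stimulus also raised Ccrl2 on top of the other: E. coli 1.67-fold in the presence of IFN-γ (adjusted p = 0.00026) and IFN-γ 2.53-fold in the presence of E. coli (adjusted p = 1.5e-07), the latter in a comparison with 9.79% of genes higher and 9.57% lower.

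In the IL-4 experiment Ccrl2 stood lower with the stimulus. Its counts were 204, 215 and 247 in the AC controls and 108, 106 and 159 with IL-4, all 3 below the lowest ACs library. The fold in the ACs direction was 1.80 (log2 change -0.85, 95% interval -1.31 to -0.38), which limma did not call on these 6 libraries (adjusted p = 0.14). Among all genes 8.84% lay lower without overlap. edgeR on the recovered reads called it lower (-0.89, adjusted p = 0.026), in a fit that called 0.797% of genes lower, and so did DESeq2 (-0.89, adjusted p = 0.019), which called 0.759%. With limma it was called when all 18 libraries shared 1 estimate of the spread (-0.85, adjusted p = 0.0016, 1.01% of genes lower) and without the 2 shallow libraries (-0.96, adjusted p = 0.0019, 2.93% lower). Without IL-4 replicate 3, the highest of its group, it was called as well (-1.03, adjusted p = 0.044). Without any other single library limma did not call it (adjusted p between 0.18 and 0.51). Nor was it called with the replicate block (adjusted p = 0.14), pseudocount 5 (0.12), a common upper quartile (0.13) or a mean of at least 50 (0.10). The ACs libraries of the 2 experiments did not overlap for Ccrl2, at 112 to 127 and 204 to 247, and experiment and level cannot be told apart there.

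**Figure D2:**
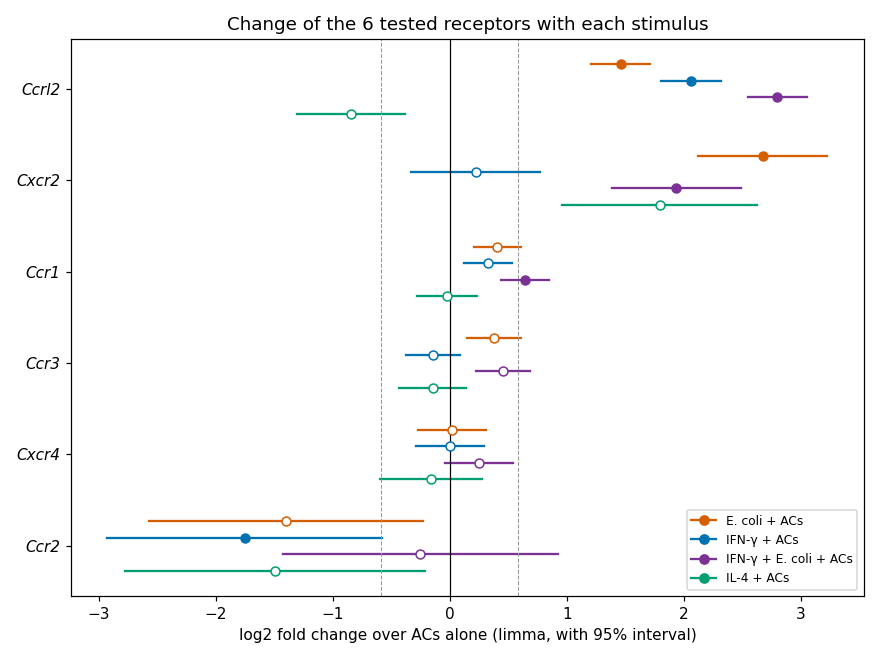
Change of each tested receptor with each stimulus over the ACs libraries of its own experiment, as log2 fold change from limma with its 95% interval; filled points passed the threshold, open points did not, and dashed lines mark 1.5-fold. Ccrl2 lies at 1.46, 2.06 and 2.80 with the Type 1 stimuli and at -0.85 with IL-4 + ACs, while every Cxcr4 interval spans 0.

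Cxcr2, the receptor of the neutrophil-attracting CXC chemokines, rose with E. coli, and its change with IFN-γ alone was not called. Its normalized counts were 43.9, 41.3 and 71.0 in the AC controls, 364, 367 and 266 with E. coli, 48.8, 43.6 and 96.5 with IFN-γ, and 190, 216 and 184 with combined stimulation. ACs and IFN-γ overlapped, both groups with E. coli lay clear above them, and E. coli was the higher of these. E. coli raised Cxcr2 6.40-fold (log2 change 2.68, 95% interval 2.13 to 3.23, adjusted p = 8.9e-07) and combined stimulation 3.82-fold (1.94, 1.38 to 2.49, adjusted p = 1.0e-05), while IFN-γ gave 0.22 (-0.33 to 0.77, adjusted p = 0.58). The change with IFN-γ was -0.13 without IFN-γ replicate 3. In the presence of IFN-γ, E. coli raised it 3.28-fold (adjusted p = 0.00014). Adding IFN-γ to E. coli lowered Cxcr2 1.67-fold (-0.74, 95% interval -1.30 to -0.19, adjusted p = 0.045).

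That last call was close to the threshold. It was lost without E. coli replicate 1 (-0.67, adjusted p = 0.14) or 2 (-0.66, adjusted p = 0.14), without combined replicate 1 (-0.72, adjusted p = 0.10) or 3 (-0.70, adjusted p = 0.11) and without AC control replicate 1 (-0.74, adjusted p = 0.051). edgeR (adjusted p = 0.017) and DESeq2 (adjusted p = 0.011) made it. The interaction of IFN-γ and E. coli on Cxcr2 was -0.96 (95% interval -1.75 to -0.18) and was not called (adjusted p = 0.13). The 8 neutrophil markers did not move as 1 list with E. coli, and 3 were abundant enough to be tested. S100a9, a calcium-binding alarmin subunit, rose by 4.05 on the log2 scale, from a mean of 2.17 ± 2.05 to 42.4 ± 8.24 (SD, n = 3), and Mmp8, a collagenase, fell by 1.44, from 522 ± 33.0 to 193 ± 31.1. Ly6g stood at 3.74 ± 1.16 and 5.92 ± 1.52 (adjusted p = 0.55). Among the untested, Ngp had means of 1.44 in the AC controls and 11.2 with E. coli and Camp of 0.31 and 4.24, while Mpo and Elane, a peroxidase and an elastase of immature neutrophil granules, were at 0 in all 9 Type 1 libraries with a stimulus. With combined stimulation Ly6g rose by 2.01 and S100a9 by 3.28, and with IFN-γ, where Cxcr2 was not called, Ly6g rose by 2.16, S100a9 rose by 2.52 and Mmp8 fell by 1.33. The list summed to between 497 and 561 in the AC controls, between 217 and 296 with E. coli, between 234 and 271 with IFN-γ and between 586 and 707 with both stimuli, and Mmp8 made up most of each sum. The part of these markers in the Cxcr2 result was not tested.

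With IL-4 Cxcr2 stood higher in every library. Its counts were 28.6, 24.1 and 69.7 in the AC controls and 147, 135 and 108 with IL-4, and the shallow replicate 3 libraries, at 69.7 and 108, were the nearest to each other. The change was 3.47-fold (log2 1.79, 95% interval 0.96 to 2.63), which limma did not call on the 6 libraries (adjusted p = 0.067), and 8.45% of all genes were higher without overlap. edgeR called it (2.12, adjusted p = 0.00078, 1.19% of genes higher), as did DESeq2 (1.98, adjusted p = 1.8e-05, 1.20% of genes higher by the same rule) and the fit over all 18 libraries (1.79, adjusted p = 0.0025, 1.11% higher). Without ACs replicate 3 alone limma called it (2.25, adjusted p = 0.0031). It did not without any other single library (adjusted p between 0.13 and 0.25). Nor was Cxcr2 called with the replicate block (adjusted p = 0.18), a common upper quartile (0.070) or a mean of at least 50 (0.0504). Without both shallow libraries the change was 5.21-fold (2.38, adjusted p = 3.2e-05), in a fit with 3.25% of genes higher. The neutrophil markers summed to between 330 and 418 in the AC controls and between 106 and 113 with IL-4, a fall carried by Mmp8, from 325 ± 66.8 to 66.4 ± 9.31 (SD, n = 3), while S100a9 stood at 23.5 ± 11.1 and 28.7 ± 6.28.

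Ccr2, the receptor of CCL2, CCL7 and CCL12, was sparse. Its normalized counts were 17.1, 18.8 and 20.4 in the AC controls, 2.51, 7.36 and 13.2 with E. coli, 3.96, 6.88 and 4.10 with IFN-γ, and 9.98, 13.4 and 27.6 with combined stimulation. These rest on 21, 20 and 25 reads in the AC controls and on 3, 6 and 2 reads with IFN-γ, so a few reads carry each value. Both single-stimulus groups lay below ACs without overlap, and the group with both stimuli spread across the ACs range. IFN-γ lowered Ccr2 3.37-fold (log2 change -1.75, 95% interval -2.93 to -0.58, adjusted p = 0.025). E. coli gave -1.40 (-2.57 to -0.23, adjusted p = 0.11), not called, and both stimuli together gave -0.25 (-1.43 to 0.92). The call with IFN-γ was lost when AC control replicate 1 (adjusted p = 0.060), 2 (0.071) or 3 (0.086) or IFN-γ replicate 1 (0.065) or 3 (0.057) was left out, with changes between -1.97 and -1.64 over all libraries left out, and was made by edgeR (-1.87, adjusted p = 0.021) and DESeq2 (-1.89, adjusted p = 0.023). The macrophage and monocyte markers summed to between 26351 and 35138 with IFN-γ and to between 21115 and 25073 in the AC controls. With IFN-γ 3 of 10 were higher and 1 was lower (all genes: 11.4% and 9.96%). With E. coli none of the 10 was higher and 6 were lower (5.05% and 5.25%). With combined stimulation 2 were higher and 6 lower (14.7% and 17.2%). Their part in the Ccr2 result was not tested.

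In the IL-4 experiment Ccr2 counts were 36.9, 23.4 and 16.1 in the AC controls and 12.8, 7.38 and 5.14 with IL-4. The 2 groups did not overlap, but the replicate 3 values stand for 3 reads and 1 read. The change was -1.49 (95% interval -2.78 to -0.21, adjusted p = 0.44) and was called without the 2 shallow libraries (-1.5, adjusted p = 0.041), and not by edgeR (-1.53, adjusted p = 0.14) or DESeq2 (-1.53, adjusted p = 0.39).

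Cxcr4, the CXCL12 receptor, did not pass the threshold with any stimulus. Its normalized counts were 3284, 4142 and 3615 in the AC controls, 3420, 3954 and 3753 with E. coli, 3927, 3487 and 3622 with IFN-γ, and 4423, 5448 and 3418 with combined stimulation. The 4 groups overlapped, and the last was the most spread, with an SD of 1015 (n = 3). The changes were 0.02 (95% interval -0.28 to 0.31), 0.00 (-0.29 to 0.30) and 0.25 (-0.04 to 0.54), so the intervals with a single stimulus stop short of 1.5-fold in either direction. With IL-4 the counts were 2159, 2443 and 1748, against 2759, 2696 and 1732 in the AC controls, a change of -0.16 (-0.60 to 0.28). CXCR4 is also made by thymocytes, whose 13 markers summed to between 66.2 and 450 in the libraries.

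Cx3cr1 (ENSMUSG00000052336.7, chr9:119901616-120069879, minus strand) was at the limit of detection and was not tested, since its mean was below 10. Its normalized counts ran from 0 to 8.21 over the 18 libraries, with the highest group mean, 5.64 ± 2.41 (SD, n = 3), for IFN-γ, where the libraries held 4, 3 and 4 reads. In 4 libraries no read was counted. The annotated span of Cx3cr1, introns included, overlaps other genes, among them Csrnp1 and Wdr48. Whether this affected its counts was not tested.

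The combined stimulation was next set against the single ones by the interaction term, which asks whether the log2 changes with E. coli and IFN-γ add up. It called 2 of the 6 tested receptors, 1 in each direction, beside 3.16% of all genes higher than the sum and 4.28% lower. Ccrl2 fell short of the sum by 0.72 (interaction -0.72, 95% interval -1.08 to -0.37, adjusted p = 0.014): E. coli raised it by 1.46 without IFN-γ and by 0.74 with it. Without E. coli replicate 1, the highest of that group, the term was -0.66 (adjusted p = 0.054). Ccr2 exceeded the sum by 2.90 (1.24 to 4.56, adjusted p = 0.031), with a change by E. coli of -1.40 without IFN-γ and of 1.5 (0.33 to 2.68, adjusted p = 0.067) with it. The Ccr2 term was no longer called without AC control replicate 1 (adjusted p = 0.057), 2 (0.070) or 3 (0.084), E. coli replicate 1 (2.36, adjusted p = 0.087), IFN-γ replicate 1 (0.053) or combined replicate 3 (2.51, adjusted p = 0.071).

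**Figure D3:**
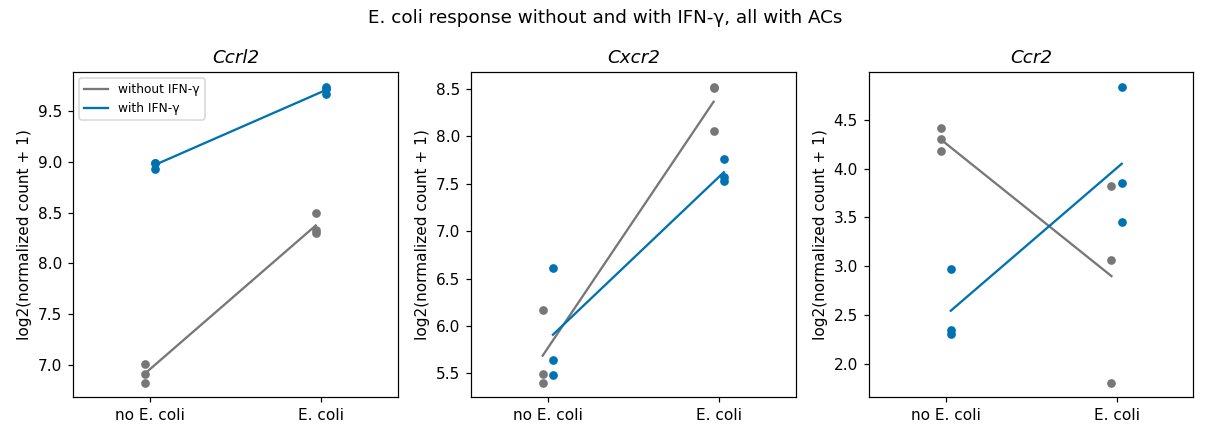
Log2 of the normalized count plus 1 of Ccrl2, Cxcr2 and Ccr2 without and with E. coli, in grey without and in blue with IFN-γ, with points for libraries and lines joining the means of 3. The Ccrl2 lines rise by 1.46 and 0.74, the Cxcr2 lines by 2.68 and 1.71, and the Ccr2 lines cross, with -1.40 and 1.5.

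The IL-4 response was then set against the response to IFN-γ + E. coli, each over its own ACs, in a fit over all 18 libraries. Of the 6 receptors 3 responded lower to IL-4, beside 10.8% of 10414 genes, and none higher, beside 9.67%. The difference was -3.65 for Ccrl2 (95% interval -4.08 to -3.21, adjusted p = 1.3e-10), -0.67 for Ccr1 (-0.95 to -0.39, adjusted p = 0.0011) and -0.60 for Ccr3 (-0.94 to -0.26, adjusted p = 0.012). For Cxcr2, which stood higher with both, it was -0.14 (-1.11 to 0.83, adjusted p = 0.86). The Ccr3 difference dropped under 1.5-fold without Type 1 AC control replicate 1 (-0.59), combined replicate 1 (-0.53), IL-4 experiment AC control replicate 1 (-0.55) or 2 (-0.54) or IL-4 replicate 3 (-0.54). Without IL-4 experiment AC control replicate 3, Cxcr4 joined the calls (-0.63, adjusted p = 0.043). The experiment and the stimulus are confounded here, beyond what each experiment's own ACs libraries remove.

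The other receptors of the family were mostly silent. Of 17 listed, 3 could be tested in the Type 1 libraries and 2 in those of the IL-4 experiment. With E. coli 6 of the 10 macrophage and monocyte markers were lower (all genes: 5.25%), among them C1qa, C1qb, C1qc, Timd4 and Vsig4. The markers summed to between 14979 and 20284, against 21115 to 25073 in the AC controls. Their part in the changes of the receptors was not tested.

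The ligands of the receptors were counted from a list of 17, of which 13 were tested in the Type 1 and 14 in the IL-4 experiment. With E. coli 7 of the 13 ligand transcripts were higher and 1 was lower (all genes: 5.05% and 5.25%), with IFN-γ 4 and 2 (11.4% and 9.96%), with both stimuli 6 and 2 (14.7% and 17.2%), and with IL-4 5 and 0 of 14 (1.09% in either direction). Among the ligands of CXCR2, Cxcl1 rose by 2.67, Cxcl3 by 2.61 and Cxcl5 by 3.88 with E. coli, where Cxcr2 itself rose by 2.68. With IL-4 Cxcl3 rose by 2.2, while Cxcl1 was at -0.01 (adjusted p = 0.99) and Cxcl5 at 0.71 (adjusted p = 0.79). Ccl3, a ligand of CCR1, rose with E. coli by 1.85 and with both stimuli by 2.17. The CCR2 ligands Ccl7 and Ccl12 rose with IL-4 by 2.71 and 1.96, with Ccl7 at 578 to 982 against 79.7 to 182, in the samples in which Ccr2 stood lower. Ccl12 rose by 0.94 with IFN-γ, where Ccr2 fell by 1.75, and fell by 1.19 with E. coli and by 1.09 with both stimuli, where Ccr2 was at -1.40 and -0.25 and was not called.

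**Figure D4:**
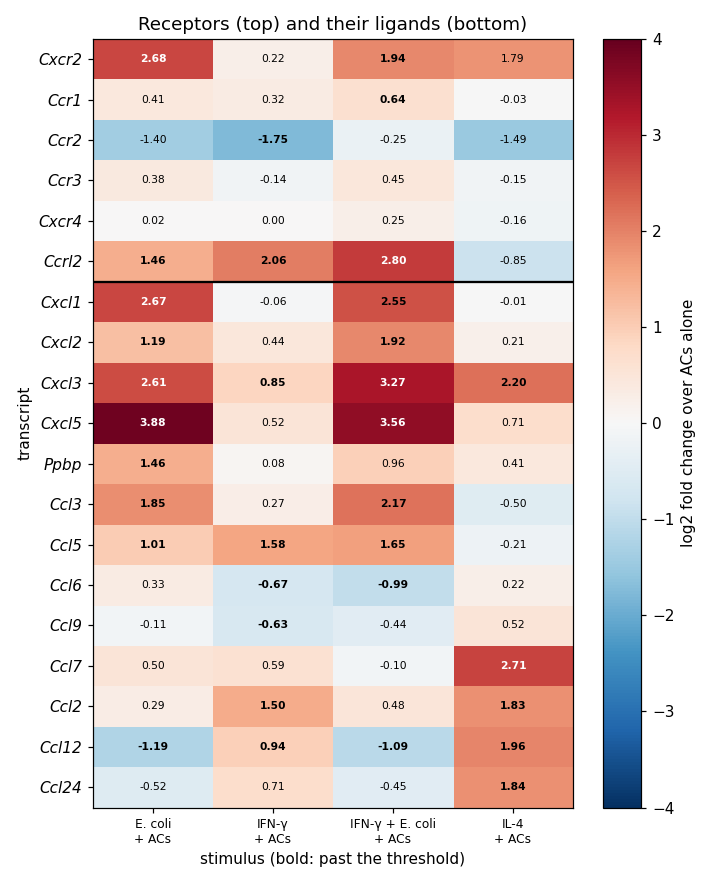
Log2 fold change over ACs of the 6 tested receptors (above the line) and of 13 ligand transcripts (below it) with each stimulus, as colour and printed value, in bold where past the threshold. The column of E. coli + ACs holds bold positive values for Cxcr2, Ccrl2 and 7 ligands, among them Cxcl1, Cxcl3 and Cxcl5. That of IL-4 + ACs holds them for 5 ligands, among them Ccl2, Ccl7 and Ccl12.

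Of 19 listed components that carry or end the receptor signal, 18 were tested. With E. coli limma called 0 of them, beside 5.05% of all genes higher and 5.25% lower. At an unadjusted p under 0.05 there were 8 of the 18, beside 2633 of 10166 genes. edgeR and DESeq2 each called 1 (Grk3, named after its value was seen), and their shares of all genes with E. coli are not reported here. With IFN-γ 1 was higher and 3 were lower (all genes: 11.4% and 9.96%), and with combined stimulation 3 were higher and 4 lower (14.7% and 17.2%), shares near those of all genes with combined stimulation, so the members below are given as single transcripts. Gng2, a G protein subunit, rose by 1.17 with IFN-γ and by 1.31 with both stimuli. Rgs2 and Rgs18, which end G protein signals, fell with IFN-γ by 0.81 and 1.69 and with both by 0.91 and 0.97. Arrb1, an arrestin that takes receptors off the surface, rose by 0.96 and Gnb1 by 0.74 with both, while Grk5, a receptor kinase, fell by 1.09. With IL-4 limma, edgeR and DESeq2 each called 0 of 18, where limma called 1.09% of all genes in either direction. At an unadjusted p under 0.05 there was 1 of the 18, beside 1030 of 10669 genes.

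The transcripts most like each receptor over the 12 Type 1 libraries were taken from 6747 genes with a mean of at least 50, by Pearson's r of log2 values, as a description across libraries that fall into 4 treatment groups. Ccrl2 was followed most closely, by Rnf19b (r = 0.994), Gclc (0.986) and Basp1 (0.984). Ccr1 was most like Ptpn9 (0.977), Srgn (0.973) and 1810037I17Rik (0.969), and Ccr3 most like Neurl3 (0.953), Adam19 (0.946) and Tmem123 (0.946). For Cxcr2 they were Pim2 (0.957), Mmp25 (0.952) and Cass4 (0.951). The sparse Ccr2, with Abca13 (0.870) and Gxylt1 (0.851), and the steady Cxcr4, with Cactin (0.832), Ccdc88b (0.831) and Rnpepl1 (0.829), had no transcript as close.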

How the data were processed

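Normalized counts, a signal the authors made with DESeq2 by dividing each gene's reads by a size factor of the library, were used as deposited. The values were whole multiples of 1 step in every library, so whole reads were recovered for 100.0% of values (within a normalized count of 0.006). The study describes a pipeline with TopHat2 2.1.0 and HTSeq 0.6.1 and another with STAR, and the submitters' processing notes name the former and GRCm38. Symbols were matched for 54409 identifiers. limma 3.58.1 (lmFit, eBayes with a trend, R 4.3.3) was fitted to log2 of the normalized count plus 1 for genes with a mean of at least 10, over 12 Type 1, 6 IL-4 or all 18 libraries, with Benjamini-Hochberg adjustment over all tested genes. Alternatives were pseudocount 5, filters at any value above 0 and at a mean of 50, a common upper quartile, array weights, the replicate number as a block, edgeR 4.0.16 and DESeq2 1.42.0 on recovered reads, no fold threshold, all 18 libraries in 1 fit and libraries left out. Intervals are 95%, and sampling noise was exceeded between replicates (chi-square per degree of freedom 3.92 to 13.2). The fits were tested on simulated data. Named were the 7 receptors, from each list at most 6 called transcripts with the largest change and a group mean of at least 50, and per receptor the 3 most alike; some items are not reported here. Marker genes are named from their fixed lists, and Ccl2 was named besides, after its values were seen. The members and lists were chosen with earlier results of these data known.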

Additional observations from a re-analysis of the deposited data

Results flagged for a closer look

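The response of Ccrl2 to E. coli differed between eosinophils without and with IFN-γ, with an interaction of -0.724 on the log2 scale. The response of Ccr2 to E. coli differed as well, with an interaction of 2.90, in counts of 2 to 25 reads per library.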

How the results depend on the processing

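Over the members' log2 changes, 976 alternative values kept direction and side of the threshold, 33 lost and 25 gained a call, and 20 changed sign, the causes being untested. A value without an adjusted p was sorted by its direction alone, so the 976 include the DESeq2 interaction of Ccr2. With no fold threshold, a looser rule, Ccr1 and Ccr3 were called as well with E. coli + ACs. With all genes above 0, 1 receptor was called with IFN-γ + ACs (Ccr2 at adjusted p = 0.065), for IFN-γ + E. coli + ACs against E. coli + ACs and for the interaction, and 2 with IL-4 + ACs. With a mean of at least 50, at which Ccr2 is not tested, 1 was called with IFN-γ + ACs and for the interaction. Outside the IL-4 comparison the shares of all genes called under these rules are not reported here, so these calls describe the receptors only. With IL-4 + ACs, 1 receptor was called with pseudocount 5, 2 by edgeR, DESeq2 and the fit of all 18 libraries, and 3 with array weights and without the 2 shallow libraries. The count over all genes, 116, became 208 with all genes above 0, 212 with edgeR, 209 with DESeq2, 745 with array weights, 656 without the shallow libraries and 221 with all 18. The fit of all 18 left 1 receptor for IFN-γ + E. coli + ACs against E. coli + ACs and 495 genes for the interaction (321 higher and 435 lower in the 12 Type 1 libraries), where DESeq2 called 1 receptor and left Ccr2 without an adjusted p. With a common upper quartile, which moved the median of all genes by -0.18 with IFN-γ + E. coli + ACs, 1 receptor remained in the IL-4 difference.

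With libraries left out, receptors called ranged from 2 to 2 with E. coli + ACs, 1 to 2 with IFN-γ + ACs, 2 to 3 with both, 2 to 4 for both against IFN-γ + ACs, 1 to 2 for both against E. coli + ACs, 0 to 2 for the interaction, 0 to 1 with IL-4 + ACs and 2 to 4 for the IL-4 difference. The counts over all genes ranged from 777 to 1150 with E. coli + ACs, 1746 to 2271 with IFN-γ + ACs and 2814 to 3423 with both. They ranged from 1170 to 1791 for both against IFN-γ + ACs and from 1547 to 2296 for both against E. coli + ACs. For the interaction they ranged from 400 to 1026, with IL-4 + ACs from 47 to 130 and for the IL-4 difference from 1724 to 2294. The upper quartile also moved the split of all genes higher and lower from 1160 and 1013 to 966 and 1247 with IFN-γ + ACs, from 1494 and 1746 to 1155 and 2200 with both stimuli, from 995 and 973 to 769 and 1352 for both against E. coli + ACs, and from 1007 and 1121 to 1268 and 870 for the IL-4 difference.

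Signs turned for Cxcr4 with E. coli + ACs (-0.0172 with the upper quartile, -0.0636 without ACs replicate 1, -0.0323 without E. coli + ACs replicate 2) and with IFN-γ + ACs (-0.0851 with the upper quartile, -0.0257 with edgeR, -0.0167 with DESeq2, -0.0746 and -0.00558 without ACs replicates 1 and 3, -0.0439 without IFN-γ + ACs replicate 1). They turned for Cxcr2 with IFN-γ + ACs (-0.129 without its replicate 3), Ccr2 with both stimuli (0.0446 without replicate 1), Ccr3 for both against E. coli + ACs (-0.0303 with the upper quartile) and Ccr1 with IL-4 + ACs (0.0198 without its replicate 3, 0.0418 without the shallow libraries). The Cxcr2 IL-4 difference was 0.204 with edgeR, 0.101 with DESeq2, 0.318 with array weights, 0.0019 without Type 1 ACs replicate 2, 0.318 without IL-4 experiment ACs replicate 3 and 0.445 without the shallow libraries.

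Without single libraries these changes ranged from -0.0636 to 0.104 and from -0.0746 to 0.0926 (Cxcr4 with E. coli + ACs and IFN-γ + ACs), -0.129 to 0.462 (Cxcr2), -0.646 to 0.0446 (Ccr2), -0.0711 to 0.0198 (Ccr1) and -0.428 to 0.318 (Cxcr2, IL-4 difference).

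Same-numbered replicates did not deviate together (mean correlation 0.0054 in the Type 1 and 0.0095 in the IL-4 experiment), so the numbers are not taken to pair libraries. With the replicate block, IL-4 + ACs called 74 genes in place of 116, and no receptor's call changed in any comparison. Depth limits Ccr2 and Cx3cr1, which rest on at most 49 and 8 reads in a library.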
